A study of Mus musculus with 59 samples.

Results

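The 10 genes described here code for enzymes that build triglycerides from glycerol-3-phosphate, and were taken by name from the 55341 gene rows of each count table of brown adipose tissue (BAT). They are Gpam, Gpat3 and Gpat4, Agpat2 and Agpat3, Lpin1, Lpin2 and Lpin3, and Dgat1 and Dgat2. All 10 rows were found in each of the 3 tables, and all 10 passed the filter on low counts (a mean normalized count above 10) in the fit used for each comparison. The tables hold RNA-seq counts from 59 male C57BL/6J mice labelled as 8 to 12 weeks old. In the thyroid hormone experiment every mouse received PTU in its food, a drug that blocks thyroid hormone synthesis. Of its wild-type (WT) mice, 4 received PTU alone, and 4 more per time point were collected 3, 6, 12 or 24 h after T3 and T4 (TH) were injected. Of its BATKO mice, 5 received PTU alone and 5 were collected at 24 h. In the temperature experiment, whose table is labelled 24 h, 3 CTRL and 4 BATKO mice were kept at 4 °C and 4 CTRL and 5 BATKO mice at 30 °C. In the diet experiment, whose table is labelled 3.5 d, 4 CTRL and 3 BATKO mice received a high-fat diet (HFD) and 4 CTRL and 2 BATKO mice received chow. Neither the labels nor the study's methods describe the genetic change of BATKO mice or the cells that carry it, so the targeted gene was not checked. The study's title asks for the target genes of thyroid hormone in BAT and for their role under metabolic stress.

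Triglyceride is made in 4 enzyme steps at the endoplasmic reticulum and the mitochondrial outer membrane. Glycerol-3-phosphate acyltransferases (GPAT) add a first fatty acid to glycerol-3-phosphate and give lysophosphatidic acid. Acylglycerol-phosphate acyltransferases (AGPAT) add a second fatty acid and give phosphatidic acid, the branch point toward phospholipids. Lipins remove the phosphate and give diacylglycerol, and diacylglycerol acyltransferases (DGAT) add the last fatty acid. In brown fat the stored triglyceride is a fuel for heat production, and its synthesis and breakdown run side by side.

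The libraries held between 7612059 and 18073627 counts, of which 39.2% to 55.7% fell on mitochondrial genes. The labelled tissue was checked against 8 markers of brown adipocytes, Ucp1 and Adipoq among them, and all 8 were above 0 in all 59 mice. The same held for all listed markers of white adipocytes, macrophages, endothelial cells, fibroblasts and Schwann cells, so this does not single out brown fat. Among the 8, Ucp1 lay between 146 and 17186 CPM and Elovl3 between 0.0798 and 1188 CPM. The summed level of 6 skeletal muscle markers varied between 0.762 and 7720 CPM (counts scaled to a common library size) between mice, and exceeded 1000 CPM in 11 mice, of which 6 belonged to the temperature experiment. At 30 °C these were CTRL mice 20 and 21 and BATKO mice 13 and 17, and at 4 °C BATKO mice 8 and 11. On chow they were CTRL mice 3 and 4, on HFD BATKO mouse 15, and after TH WT mice B12 (6 h) and B26 (24 h). Calls that were lost without these 11 mice are named beside the results. In such a change, smaller groups and less muscle RNA cannot be told apart. In bulk tissue, fewer cells of a type and less RNA per cell cannot be told apart. The summed markers of white adipocytes lay between 10.4 and 324 CPM, of macrophages between 19.8 and 229 CPM, of endothelial cells between 232 and 694 CPM, of fibroblasts between 112 and 359 CPM, of Schwann cells between 8.69 and 57.4 CPM and of lymphocytes between 0.226 and 4.33 CPM. All p-values measure the spread between the mice of a group. All levels below are CPM normalized by the trimmed mean of M-values (TMM) within one experiment, and were not compared between experiments.

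The promoters of 4 genes are shown because the results turn on them. Gpat3 fell and Lpin3 rose after TH in WT mice, Agpat2 had the largest fold change of the members in the cold, and the window of Lpin1, the main lipin, holds a half-site. The sequences are RefSeq windows on GRCm38.p6, read 5′ to 3′ on the strand of the gene, from 250 bases before to 50 bases after the start. Capitals mark the half-site AGGTCA, the hexamer that nuclear receptors such as the thyroid hormone receptor bind.
Gpat3 (chr5:100845979-100846278, plus strand): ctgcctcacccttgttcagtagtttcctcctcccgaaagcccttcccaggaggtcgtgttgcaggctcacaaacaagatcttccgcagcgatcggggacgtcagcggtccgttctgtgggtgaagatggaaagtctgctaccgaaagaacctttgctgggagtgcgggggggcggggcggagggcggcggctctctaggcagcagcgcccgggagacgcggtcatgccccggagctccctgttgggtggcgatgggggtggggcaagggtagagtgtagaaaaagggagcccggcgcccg
Lpin3 (chr2:160880420-160880719, plus strand): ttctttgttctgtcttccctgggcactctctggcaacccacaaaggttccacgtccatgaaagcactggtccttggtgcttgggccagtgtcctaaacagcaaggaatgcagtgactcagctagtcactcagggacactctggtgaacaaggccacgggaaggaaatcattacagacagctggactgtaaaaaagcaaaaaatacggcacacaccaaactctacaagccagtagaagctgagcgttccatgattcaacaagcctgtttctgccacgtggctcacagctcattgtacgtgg
Agpat2 (chr2:26604368-26604667, minus strand): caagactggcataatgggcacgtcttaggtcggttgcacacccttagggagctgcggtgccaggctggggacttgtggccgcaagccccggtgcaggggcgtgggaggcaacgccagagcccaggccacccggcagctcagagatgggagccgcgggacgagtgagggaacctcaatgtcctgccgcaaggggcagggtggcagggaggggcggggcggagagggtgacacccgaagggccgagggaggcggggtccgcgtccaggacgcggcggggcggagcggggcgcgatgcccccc
Lpin1 (chr12:16610917-16611216, minus strand): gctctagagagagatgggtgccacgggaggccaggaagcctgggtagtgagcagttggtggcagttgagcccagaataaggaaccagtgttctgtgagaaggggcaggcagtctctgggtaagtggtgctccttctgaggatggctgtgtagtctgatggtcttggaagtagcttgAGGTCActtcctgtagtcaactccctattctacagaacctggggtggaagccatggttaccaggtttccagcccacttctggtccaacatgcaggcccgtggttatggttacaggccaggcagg

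Promoter windows were found for 7 of the 10 members, with 11 windows in all since Gpam and Lpin3 have 2 and Lpin2 has 3. AGGTCA was searched on both strands and was found in 2 of these 11 windows and in 16.3% of the 32851 windows of all genes. The 2 windows were that of Lpin1, where the match starts 74 bases before the start, and the second window of Gpam, where it starts 196 bases before. The direct repeat with 4 bases between (DR4, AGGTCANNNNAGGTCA), which contains 2 half-sites, was found in none of the 11 windows and in 0.0152% of all windows. The direct repeat with 1 base between (DR1, AGGTCANAGGTCA) was found in none of the 11 and in 0.0396% of all. Exact repeats are so rare in all windows that their absence from these 11 cannot show that a gene lacks a receptor site. Inexact matches and sequence outside the windows were not searched. The windows of Agpat2, Gpat3, Lpin1 and Lpin3 printed above had a GC content of 72%, 64.3%, 55.3% and 50%.

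On GRCm38, GENCODE places Gpam at chr19:55067268-55127238, Gpat3 at chr5:100845713-100899102 and Gpat4 at chr8:23171265-23208346. Agpat2 is at chr2:26593057-26604417 and Agpat3 at chr10:78269178-78352489. The lipin genes are at chr12:16535669-16610966 (Lpin1), chr17:71182560-71249817 (Lpin2) and chr2:160880670-160906002 (Lpin3), and the DGAT genes at chr15:76502015-76511953 (Dgat1) and chr7:99153658-99182719 (Dgat2). The strand setting of the counting is not given in the sources used here, so overlapping genes were looked up. The antisense gene 4930458D05Rik shares 30.0% of the exon bases of Gpat3, and the gene model Gm42987 shares 7.40% on the same strand. Agpat2 shares 3.00% of its exon bases with Egfl7, Agpat3 shares 0.205% with Gm40709, and the other 7 members share none.

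Within each step the members were compared per kilobase of exon, as the share of the summed counts per kilobase of the step's members in the same mouse. Other genes of a step, such as Gpat2, Agpat1, Agpat4, Agpat5 and Lclat1, are not in these sums. Agpat2, the AGPAT whose loss causes lipodystrophy, held 96.1% to 97.0% of the sum of the 2 AGPAT members in WT mice on PTU and 96.2% to 96.9% in CTRL mice at 4 °C. At 30 °C its share in CTRL mice was wider, 60.8% to 92.9%, and the lowest value came from mouse 19. With Agpat1, Agpat4, Agpat5 and Lclat1 added to the sum, the share of Agpat2 was 93.4% to 94.7% on PTU, 92.8% to 94.7% at 4 °C and 42.6% to 85.9% at 30 °C in the same groups. Lpin1, the lipin best known from adipose tissue, held 93.3% to 99.4% of the lipin step in all 59 mice. Dgat2 held more than Dgat1 in every mouse, with 77.6% to 95.1% of the DGAT step.

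Counting only the members, the makeup of the GPAT step varied over a wider range than that of the other steps. Gpam held between 27.3% and 74.2% of the step over the 59 mice. With Agpat1, Agpat4, Agpat5 and Lclat1 added, Agpat2 held between 42.6% and 95.4% of the AGPAT sum over these mice. Gpat3, the endoplasmic reticulum GPAT of fat cells, held 10.6% to 18.8% of the step in WT mice on PTU and 0.357% to 1.01% at 24 h after TH. The mitochondrial enzyme Gpam held 49.4% to 57.5% on PTU and 73.0% to 74.2% at 24 h. Gpat4, the other endoplasmic reticulum GPAT, held 27.7% to 39.3% and 25.0% to 26.3% in the same groups. In BATKO mice of the same experiment the leading GPAT was Gpat4, with 56.7% to 61.5% on PTU and 53.3% to 64.1% at 24 h. At 30 °C Gpat4 also led, with 47.6% to 53.7% in CTRL mice, and at 4 °C Gpam held 49.9% to 59.9% there. The largest share of Gpat3 was in BATKO mice on HFD, 19.8% to 24.4%. These shares are a description and were not tested.

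**Figure D1:**
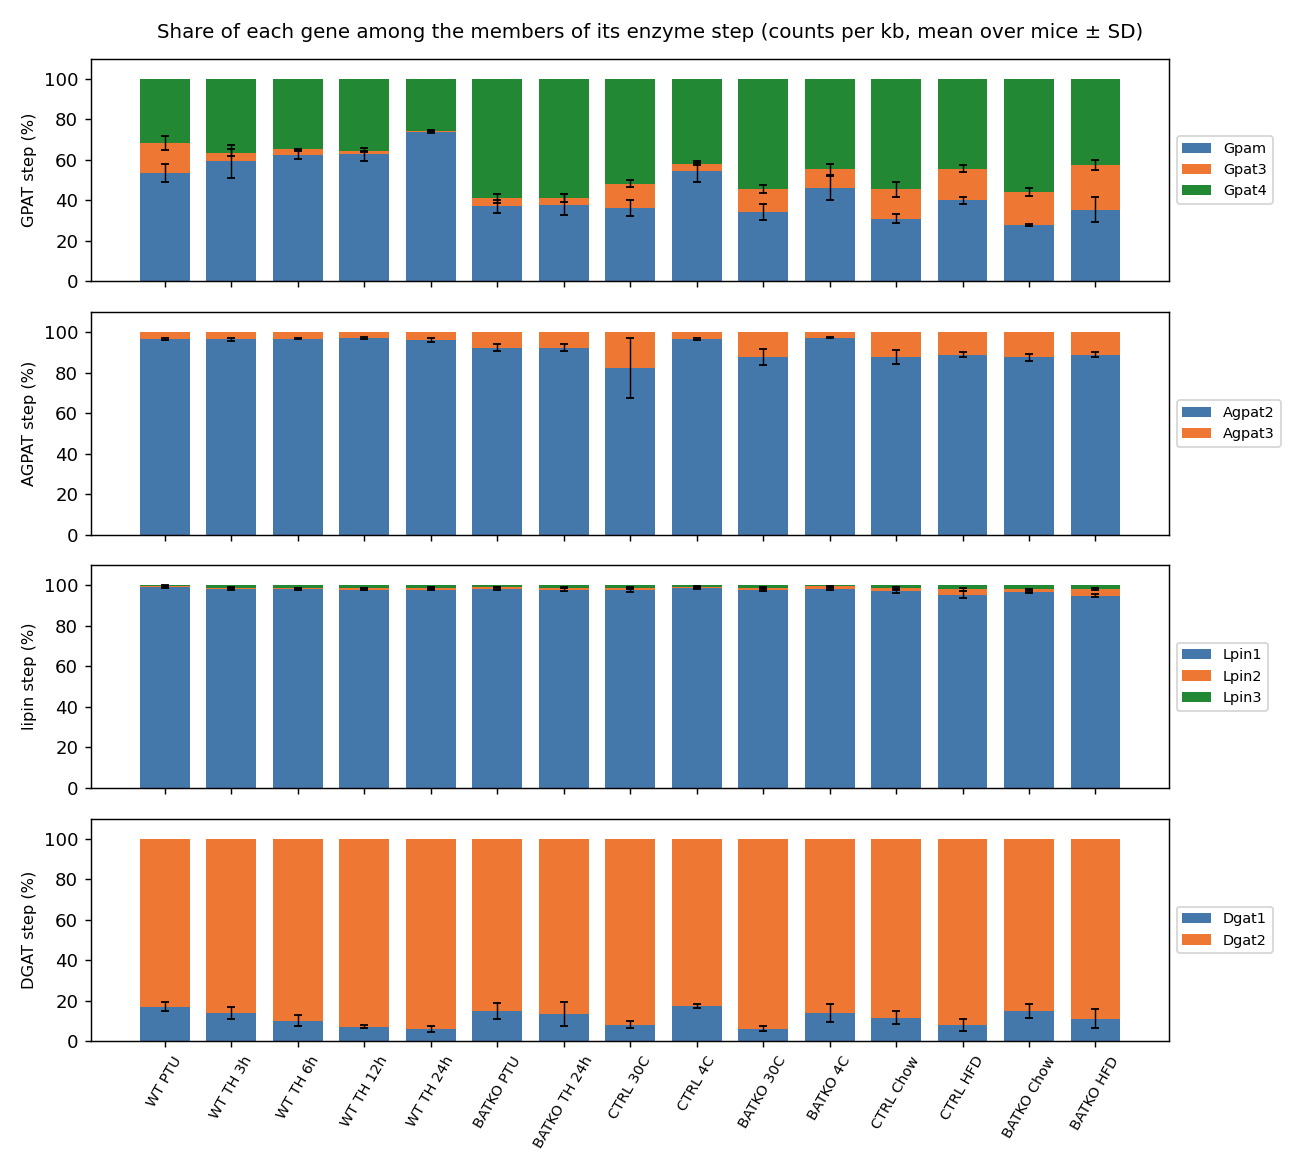
Each bar is 1 group and each panel 1 enzyme step, with the mean share of each gene in the counts per kilobase of exon of the members shown (percent, y axis) and error bars of 1 SD over the mice. Agpat2, Lpin1 and Dgat2 have the largest share among the members of their steps in every group, while the GPAT step changes its makeup, with Gpat3 nearly gone at 24 h after TH in WT mice.

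After TH in WT mice, Gpat3 fell at every time point, Lpin3 rose at every time point, and Dgat2 rose from 6 h on. Gpam and Gpat4 rose at 6 h, Gpam also at 12 h, and Dgat1 fell at 24 h, while Agpat2, Agpat3, Lpin1 and Lpin2 were called at none of the 4 time points. At 3 h, 2 of the 10 members were called, 1 up and 1 down, against 9.19% of the 13003 genes tested. At 6 h, 5 were called, 4 up and 1 down, against 23.1% of the 13003 genes tested. At 12 h, 4 were called, 3 up and 1 down, against 25.8% of the 13003 genes tested. At 24 h, 4 were called, 2 up and 2 down, against 32.7% of the 13003 genes tested. The median log2 fold changes of the 10 members at 3, 6, 12 and 24 h were 0.026, 0.16, 0.072 and -0.086, and those of all genes tested were 0.006, -0.005, -0.02 and 0.0071. The 4 time points share the same 4 PTU mice. The summed brown adipocyte markers were at 14789 to 16753 CPM on PTU, 15696 to 20786 CPM at 3 h, 18110.3 to 20935 CPM at 6 h, 15793 to 22263 CPM at 12 h and 12651 to 19654 CPM at 24 h. Only the 6 h mice were all above the PTU mice in this sum. Ucp1, the uncoupling protein of brown fat and 1 of these markers, was at 4496 to 6121 CPM on PTU, 7058 to 12326 CPM at 3 h, 9678 to 11458 CPM at 6 h, 8508 to 16002 CPM at 12 h and 7669 to 14591 CPM at 24 h, and all treated mice were above all PTU mice. The white adipocyte sum was at 105 to 117 CPM on PTU and lower in all 3 h mice, at 56.8 to 102 CPM. The endothelial sum was at 305 to 326 CPM on PTU, 336 to 353 CPM at 3 h and 232 to 295 CPM at 12 h, with no overlap. The part of these markers in the members' changes was not tested.

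In the 4 WT mice on PTU the level of Gpat3 was 36.6, 40.7, 26.5 and 30.2 CPM, and 3 h after TH it was 14.2, 12.6, 14.8 and 6.32 CPM. The 6 h mice had 10.8, 9.23, 9.56 and 6.74 CPM and the 12 h mice 5.00, 3.51, 3.75 and 4.53 CPM. The 24 h mice had 1.52, 1.53, 2.97 and 0.894 CPM. Every treated mouse was below every PTU mouse, and the levels at 6, 12 and 24 h did not overlap with each other, whereas at 3 h mouse B11 lay below all 6 h mice and the other 3 above them. Against PTU, the log2 fold change was -1.51 ± 0.23, adjusted p = 0.000271 at 3 h and -1.90 ± 0.24, adjusted p = 9.09e-06 at 6 h. It was -2.98 ± 0.26, adjusted p = 6.2e-08 at 12 h and -4.27 ± 0.29, adjusted p = 9.93e-10 at 24 h, a 19.2-fold lower level. Behind the 24 h values stood raw counts of 16, 16, 40 and 13, against 477, 446, 419 and 343 on PTU. The decrease at 24 h was known when the members were chosen. The antisense gene 4930458D05Rik moved with it, from 26 to 41 raw counts per mouse on PTU to 2 to 7 at 24 h, and its part in the result was not tested.

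Gpam was at 256, 204, 237 and 232 CPM on PTU and at 422, 380.1, 417 and 364 CPM at 6 h. The 3 h mice had 252, 302, 299.8 and 458 CPM, the 12 h mice 356, 262, 395 and 366 CPM and the 24 h mice 210.5, 264, 501 and 349 CPM. All 6 h and 12 h mice were above all PTU mice, while 1 mouse at 3 h and 1 at 24 h overlapped with them. The log2 fold change was 0.75 ± 0.20, adjusted p = 0.011 at 6 h and 0.58 ± 0.20, adjusted p = 0.0414 at 12 h. The 12 h call was lost when any 1 of 7 of the 8 mice was left out, all but B20, with adjusted p-values up to 0.113. At 3 h and 24 h the log2 fold changes were 0.47 ± 0.20, adjusted p = 0.151 and 0.51 ± 0.20, adjusted p = 0.0621, and neither was called. The 24 h change was called in DESeq2 (adjusted p = 0.0488), without the filter on low counts (adjusted p = 0.0266) and without mouse B24 (adjusted p = 0.0119) or B26 (adjusted p = 0.0449).

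Gpat4 was at 125, 132, 187 and 114 CPM on PTU and at 242, 190.4, 225 and 231 CPM at 6 h. Mouse B4 was the highest of the PTU mice, and no 6 h mouse was below it. The log2 fold change at 6 h was 0.66 ± 0.19, adjusted p = 0.0144, and without PTU mouse B5 the adjusted p was 0.0547. At 3 h Gpat4 was at 173 to 233 CPM (0.48 ± 0.19, adjusted p = 0.114) and at 12 h at 180.2 to 223 CPM (0.50 ± 0.19, adjusted p = 0.0557). At 24 h it was at 75.1, 89.1, 169 and 125 CPM, and these values overlapped with those on PTU (log2 fold change -0.29 ± 0.19, adjusted p = 0.254). Gpat4 was called at 3 h without PTU mouse B4 (adjusted p = 0.0361) and at 12 h without the same mouse (adjusted p = 0.015). The 12 h change was also called in DESeq2 (adjusted p = 0.0397), without the filter (adjusted p = 0.0263), in these 2 groups alone (adjusted p = 0.0221) and in the fit of all 30 mice (adjusted p = 0.0347). Without mouse B27, which was the highest at 24 h, its 24 h level was called as lower than on PTU (log2 fold change -0.53, adjusted p = 0.0206).

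Neither Agpat2 nor Agpat3 was called at any time point. Agpat2 was at 1732 to 2263 CPM on PTU and between 1446 and 2792 CPM over the 16 treated WT mice. Its log2 fold changes were 0.017 ± 0.17, 0.19 ± 0.17, 0.16 ± 0.17 and -0.12 ± 0.17 (SE) at 3, 6, 12 and 24 h, and the lowest adjusted p was 0.429. Agpat3, a broadly expressed AGPAT, was at 238 to 262 CPM on PTU and at 228 to 283 CPM at 24 h. Its log2 fold changes lay between -0.014 and 0.12, with SEs of 0.086, the smallest among the members in these 4 comparisons. Of the AGPAT genes that are no members, named after their values were seen, Agpat1 was at 27.7 to 38.1 CPM on PTU, 48.8 to 61.9 CPM at 6 h and 43.7 to 85.3 CPM at 24 h. It rose at 6 h (log2 fold change 0.73 ± 0.17, adjusted p = 0.00351), at 12 h (0.83 ± 0.17, adjusted p = 0.000866) and at 24 h (0.83 ± 0.17, adjusted p = 0.000715). Lclat1 was at 52.8 to 68.5 CPM on PTU and 34.5 to 43.2 CPM at 24 h, where it fell (-0.64 ± 0.15, adjusted p = 0.00238), and was not called earlier. Agpat5 was called at no time point, with 24.1 to 38.3 CPM on PTU and 25.0 to 38.5 CPM at 24 h, and Agpat4 was under the filter.

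Lpin3, a lipin with low levels in fat, was detected with raw counts of 1, 0, 2 and 7 in the 4 PTU mice, 10 counts in all. At 3 h the raw counts were 28, 44, 19 and 33, and at 6 h they were 15, 26, 44 and 64. At 12 h they were 33, 29, 32 and 22 and at 24 h 37, 28, 34 and 23. Every treated mouse was above every PTU mouse. The mean level was 0.205 ± 0.279 CPM (SD, n = 4) on PTU, 2.28 ± 0.749 CPM at 3 h and 2.58 ± 0.797 CPM at 24 h. The fitted log2 fold change was 3.44 ± 0.55, adjusted p = 0.000339 at 3 h and 3.73 ± 0.54, adjusted p = 3.97e-05 at 6 h. It was 3.79 ± 0.55, adjusted p = 2.38e-05 at 12 h, and 3.63 ± 0.55, adjusted p = 3.01e-05 in the 24 h mice. Its size rests on the few counts of the PTU mice. Without PTU mouse B5 the log2 fold change was 4.73, 5.01, 5.07 and 4.91 at the 4 time points in turn, a fold 2.43 to 2.44 times as large. Lpin3 held at most 1.81% of the lipin step in any WT mouse.

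Lpin1 was at 592, 687, 644 and 877 CPM on PTU and at 736, 734, 463 and 491 CPM at 24 h. The groups overlapped, and mouse B5 on PTU was the highest of all WT mice. No time point was called, with log2 fold changes between -0.39 and -0.21 and the lowest adjusted p at 0.163. Lpin2, which serves mainly other tissues such as liver, was at 6.82, 8.40, 4.31 and 8.62 CPM on PTU and at 3.46, 4.65, 3.10 and 6.51 CPM at 3 h. Mouse B4 on PTU and mouse B11 at 3 h made these groups overlap, and the log2 fold change was -0.67 ± 0.22, adjusted p = 0.0635. It was called without B4 (log2 fold change -0.86, adjusted p = 0.0119), without B11 (log2 fold change -0.92, adjusted p = 0.0135), in DESeq2 (adjusted p = 0.0425) and in the fit of all 30 mice (adjusted p = 0.0435). At 6 h the change of Lpin2 was called only without B4 (log2 fold change -0.70, adjusted p = 0.0179) among the leave-one-out fits, against -0.51 ± 0.22, adjusted p = 0.0979 with all mice. Mouse B11 also had the highest summed level of 5 macrophage markers at 3 h, 102 CPM against a group median of 39.1 CPM, and the part of this in the values of B11 was not tested.

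Dgat2, the DGAT that works with newly made fatty acids on lipid droplets, was at 379.6, 381, 439.7 and 412 CPM on PTU and at 459, 696, 748 and 973 CPM at 6 h. The 12 h mice had 817, 789, 1029 and 811 CPM and the 24 h mice 586, 627, 490.2 and 702 CPM. The 3 h mice had 696, 533, 507 and 382 CPM, and only this group overlapped with the PTU mice, through mouse B11. The log2 fold change was 0.37 ± 0.18, adjusted p = 0.21 at 3 h, not called, and 0.82 ± 0.18, adjusted p = 0.00273 at 6 h. It was 1.10 ± 0.18, adjusted p = 0.000124 at 12 h and 0.57 ± 0.18, adjusted p = 0.0196 at 24 h. The 24 h call was lost without PTU mouse B2 or B3 or without 24 h mouse B28, with adjusted p-values up to 0.0627.

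Dgat1, the DGAT of the endoplasmic reticulum that also re-esterifies fatty acids freed by lipolysis, was at 62.3, 89.8, 88.3 and 90.1 CPM on PTU and at 32.4, 42.3, 44.3 and 35.7 CPM at 24 h. All 24 h mice were below all PTU mice, and the log2 fold change was -1.10 ± 0.16, adjusted p = 1.47e-05. In the 3, 6 and 12 h groups Dgat1 lay at 61.9 to 105, 64.2 to 89.8 and 58.7 to 72.6 CPM, and the log2 fold changes were 0.0026, -0.11 and -0.30, none of which was called. The share of Dgat1 in the DGAT step was 14.2% to 19.2% on PTU and 4.89% to 8.36% at 24 h.

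**Figure D2:**
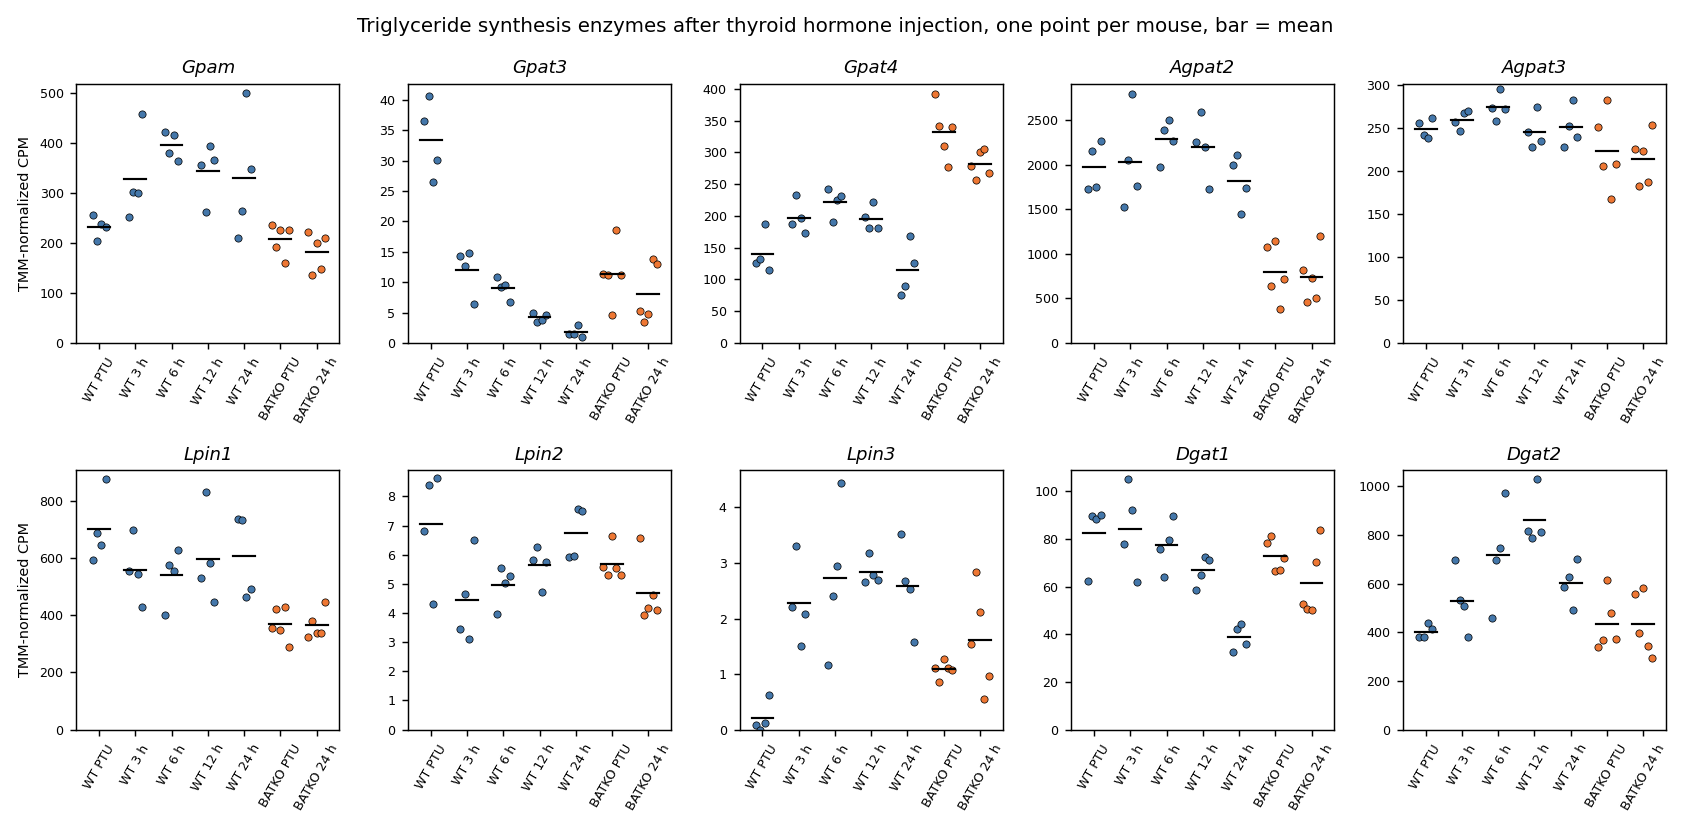
Each panel is 1 gene, each point 1 mouse, and each bar the group mean, on a y axis of TMM-normalized CPM that starts at 0, with WT groups in blue and BATKO groups in orange along the x axis. Gpat3 steps down from 26.5 to 40.7 CPM on PTU to 0.894 to 2.97 CPM at 24 h in WT mice, while Lpin3 is up from 3 h on and Dgat2 has its highest mean at 12 h.

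Between successive time points in WT mice, edgeR called no member between 3 h and 6 h, against 2.78% of the 13003 genes tested. DESeq2 called 0 members and 536 genes. In edgeR 1 member and 2130 genes had an unadjusted p below 0.05. That member was Dgat2 (log2 fold change 0.45 ± 0.18, unadjusted p = 0.022 in edgeR). From 6 h to 12 h, 1 member was called, against 2.91% of the 13003 genes tested. This was Gpat3, which fell (log2 fold change -1.08 ± 0.27, adjusted p = 0.0366), and the call was lost without the muscle-rich mice (adjusted p = 0.133), in the fit of all 30 mice (adjusted p = 0.159) and without any 1 of mice B12, B13, B15, B20, B21 and B23. From 12 h to 24 h, 3 members were called, all down, against 11.4% of the 13003 genes tested. Gpat3 had a log2 fold change of -1.28 ± 0.33, adjusted p = 0.0154, and was not called without B19 (adjusted p = 0.051), without B28 (adjusted p = 0.059) or in the fit of all 30 mice (adjusted p = 0.0871). Dgat1 had a log2 fold change of -0.80 ± 0.16, adjusted p = 0.00233. Gpat4 had a log2 fold change of -0.78 ± 0.19, adjusted p = 0.0106, and in a fit of these 2 groups alone its adjusted p was 0.0505. Dgat2 did not overlap between 12 h and 24 h and was not called (-0.53 ± 0.18, adjusted p = 0.0635), but was called in DESeq2 (adjusted p = 0.0341), without the filter (adjusted p = 0.0252) and in these 2 groups alone (adjusted p = 0.0432).

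In BATKO mice no member was called at 24 h after TH. EdgeR and DESeq2 both called 0 members and 0 genes, that is 0% of the 14178 genes tested, and 0 members and 679 genes had an unadjusted p below 0.05 in edgeR. Gpat3 was at 11.3, 11.1, 4.54, 18.6 and 11.1 CPM in the BATKO mice on PTU and at 5.20, 3.45, 4.84, 13.9 and 13.0 CPM at 24 h. These groups overlapped, with 3 treated mice near the lowest PTU mouse and 2 treated mice among the others, and the log2 fold change was -0.49 ± 0.33, adjusted p = 0.96. Lpin3 had raw counts of 15, 14, 20, 16 and 15 on PTU and 25, 42, 29, 8 and 11 at 24 h (log2 fold change 0.58 ± 0.38, adjusted p = 0.96). Dgat1 was at 78.3, 81.4, 66.5, 67.0 and 72.1 CPM on PTU and at 52.7, 50.6, 50.2, 70.2 and 83.8 CPM at 24 h, with overlap (log2 fold change -0.23 ± 0.15, adjusted p = 0.96). Dgat2 was at 339.9 to 613 CPM and 293 to 584 CPM (0.015 ± 0.19, adjusted p = 1). The other 6 members had log2 fold changes between -0.26 and 0.00061.

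The difference of the 24 h responses, BATKO minus WT, was tested as an interaction term in a fit of all 30 mice. It was past the threshold for 3 members, 2 positive and 1 negative, against 12.3% of the 14178 genes tested. For Gpat3 the difference was 3.78 ± 0.54, adjusted p = 4.35e-05 on the log2 scale, where the response was -4.27 in WT and -0.49 in BATKO mice. For Dgat1 it was 0.87 ± 0.22, adjusted p = 0.00958, with responses of -1.10 and -0.23. Lpin3 differed the other way, -3.04 ± 0.70, adjusted p = 0.00481, with responses of 3.63 and 0.58. These 3 terms were called in every leave-one-out fit, and without PTU mouse B5 that of Lpin3 was -4.33. Gpam had a difference of -0.68 ± 0.27, adjusted p = 0.0998, which was called without 24 h mouse B24 (difference -0.84, adjusted p = 0.0303). Dgat2 had one of -0.55 ± 0.28, adjusted p = 0.209.

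The starting levels on PTU already differed between genotypes, in 5 of 10 members, 2 up and 3 down in BATKO, against 70.3% of the 14178 genes tested. With 10 members, the difference between these shares was not tested. The WT libraries of this experiment held 7805938 to 14615534 counts and the BATKO libraries 13593987 to 18073627 counts, and genotype and any other difference between these 2 sets of libraries cannot be told apart. Gpat3 was lower in BATKO mice on PTU (4.54 to 18.6 against 26.5 to 40.7 CPM, log2 difference -1.54 ± 0.33, adjusted p = 0.000122). Agpat2 was at 1081, 643, 1149, 385 and 717 CPM in BATKO and 1732, 2159.7, 1748 and 2263 CPM in WT mice on PTU (log2 difference -1.30 ± 0.25, adjusted p = 3.74e-05). Lpin1 was also lower (289 to 429.5 against 592 to 877 CPM, -0.90 ± 0.18, adjusted p = 5.58e-05). Gpat4 was higher (278 to 393 against 114 to 187 CPM, 1.27 ± 0.17, adjusted p = 9.05e-08), as was Lpin3 (2.43 ± 0.59, adjusted p = 0.000587, and a log2 difference of 3.72 without PTU mouse B5). None of these 5 genes overlapped between the genotypes, and neither did 59.8% of all genes tested. In a fit of these 2 groups alone Lpin3 was under the filter and not tested, and 4 members were called. Lpin2 was also called without WT mouse B4 (adjusted p = 0.0272 against 0.198). The summed brown adipocyte markers were at 10013 to 12046 CPM in BATKO and 14789 to 16753 CPM in WT mice on PTU, and those of white adipocytes at 28.1 to 49.3 CPM and 105 to 117 CPM. Endothelial markers were at 389 to 443 CPM and 305 to 326 CPM. Ucp1 was at 947 to 1744 CPM in BATKO and 4496 to 6121 CPM in WT mice on PTU. The part of these markers in the differences was not tested.

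At 24 h after TH, 7 of 10 members differed between genotypes, 3 up and 4 down in BATKO, against 69.7% of the 14178 genes tested. Gpat3, which was lower in BATKO mice on PTU, was now higher, at 3.45 to 13.9 against 0.894 to 2.97 CPM (log2 difference 2.24 ± 0.43, adjusted p = 3.81e-05). Dgat1 was higher in BATKO (50.2 to 83.8 against 32.4 to 44.3 CPM, 0.71 ± 0.16, adjusted p = 0.000259), and Gpat4 as well (1.34 ± 0.17, adjusted p = 3.8e-08). Lower in BATKO were Agpat2 (-1.25 ± 0.25, adjusted p = 5.88e-05), Gpam (-0.82 ± 0.19, adjusted p = 0.000419), Lpin1 (-0.69 ± 0.18, adjusted p = 0.00127) and Lpin2 (-0.49 ± 0.20, adjusted p = 0.029). Gpam and Lpin2 overlapped between the genotypes, and the call of Lpin2 was lost with a mean count above 50 (adjusted p = 0.0753) and without any 1 of WT mice B27 and B28 and BATKO mice 8, 9 and 15 (adjusted p up to 0.0762). Dgat2 (-0.43 ± 0.20, adjusted p = 0.0589) was called without the filter (adjusted p = 0.0277) and without WT mouse B27 or BATKO mouse 7 or 9 (adjusted p from 0.0192 to 0.035), and Lpin3 (-0.61 ± 0.37, adjusted p = 0.145) without BATKO mouse 8 (adjusted p = 0.0369). At 24 h the summed white adipocyte markers were at 28.6 to 42.9 CPM in BATKO and 54.1 to 106 CPM in WT mice, and those of brown adipocytes at 9045 to 15227 CPM and 12651 to 19654 CPM. Endothelial markers were at 404 to 548 CPM and 293 to 327 CPM. Ucp1 was at 1107 to 2414 CPM in BATKO and 7669 to 14591 CPM in WT mice, and the part of these markers in the members' differences was not tested.

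The genes whose levels followed those of Gpat3 most closely over the 20 WT mice were Bag4, Ncoa1, Spg21, Bhlhb9 and Pde3b, among 9217 genes with a mean normalized count above 50. Pearson's r of log2 CPM with Gpat3 was 0.954, 0.953, 0.952, 0.946 and 0.938, and the points share the 5 time groups. Their own log2 fold changes at 24 h were -1.58, -0.72, -1.90, -3.01 and -1.60. In mice that did not enter this choice, r was between 0.756 and 0.955 over the 10 BATKO mice of this experiment, between 0.137 and 0.464 over the 16 mice at 4 °C or 30 °C, and between -0.510 and 0.324 over the 13 mice of the diet experiment.

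Of 29 other genes of glycerolipid metabolism, 25 were tested. After TH in WT mice 1 of them rose and 1 fell at 3 h, 5 rose and 3 fell at 6 h, and 5 rose and 3 fell at 12 h. At 24 h 6 rose and 7 fell. Of all genes tested, 9.19%, 23.1%, 25.8% and 32.7% were called at 3, 6, 12 and 24 h. The largest increase at 3, 12 and 24 h was that of Pcyt2, which makes CDP-ethanolamine for phosphatidylethanolamine, with a log2 fold change of 0.57 ± 0.15, adjusted p = 0.0175 at 3 h, 1.30 ± 0.15, adjusted p = 1.09e-06 at 12 h and 1.31 ± 0.14, adjusted p = 7.05e-07 at 24 h. At 6 h it was that of Ctdnep1, the phosphatase that dephosphorylates lipins (0.96 ± 0.13, adjusted p = 2.41e-05). The largest decrease was that of Tmem159, a seipin partner in lipid droplet assembly, at 3 h (-0.63 ± 0.17, adjusted p = 0.0187) and 12 h (-0.74 ± 0.17, adjusted p = 0.00294). At 6 h it was that of Acsl3 (-0.78 ± 0.22, adjusted p = 0.015), and at 24 h that of Acsl1 (-1.81 ± 0.16, adjusted p = 4.72e-08), both of which activate long-chain fatty acids with coenzyme A.

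Between successive time points, 1 of the 25 rose from 3 h to 6 h, again Ctdnep1 (0.55 ± 0.13, adjusted p = 0.0281), and 2 rose from 6 h to 12 h, led by Acsl3 (0.84 ± 0.22, adjusted p = 0.0446). From 12 h to 24 h 3 rose and 4 fell, with the largest changes in Plpp2, a lipid phosphate phosphatase (0.94 ± 0.24, adjusted p = 0.0142), and Gk, the kinase that makes glycerol-3-phosphate from glycerol (-1.82 ± 0.43, adjusted p = 0.00993). Over these 3 intervals 2.78%, 2.91% and 11.4% of all genes were called. None of the 25 was called in BATKO mice at 24 h by edgeR. The response differed between genotypes for 5 of 25, against 12.3% of all genes, with the largest terms for Acsl1 (1.46 ± 0.31, adjusted p = 0.00228, BATKO minus WT) and Pcyt2 (-1.13 ± 0.24, adjusted p = 0.00246). On PTU 18 of 25 differed between genotypes, against 70.3% of all genes, so that their share was close to the background. Of these, 4 were higher and 14 lower in BATKO than in WT mice, led by Pcyt2 (1.66 ± 0.18, adjusted p = 1.83e-09) and the acyltransferase Lclat1 (-1.74 ± 0.17, adjusted p = 1.51e-10). Of all genes, 5252 were called higher and 4709 lower in BATKO mice on PTU. At 24 h 1 was higher, Pcyt2 (0.53 ± 0.17, adjusted p = 0.00663), and 10 were lower, led by Acsl4 (-1.65 ± 0.14, adjusted p = 6.75e-12), against 69.7% of all genes called. Those were 5149 higher and 4728 lower.

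**Figure D3:**
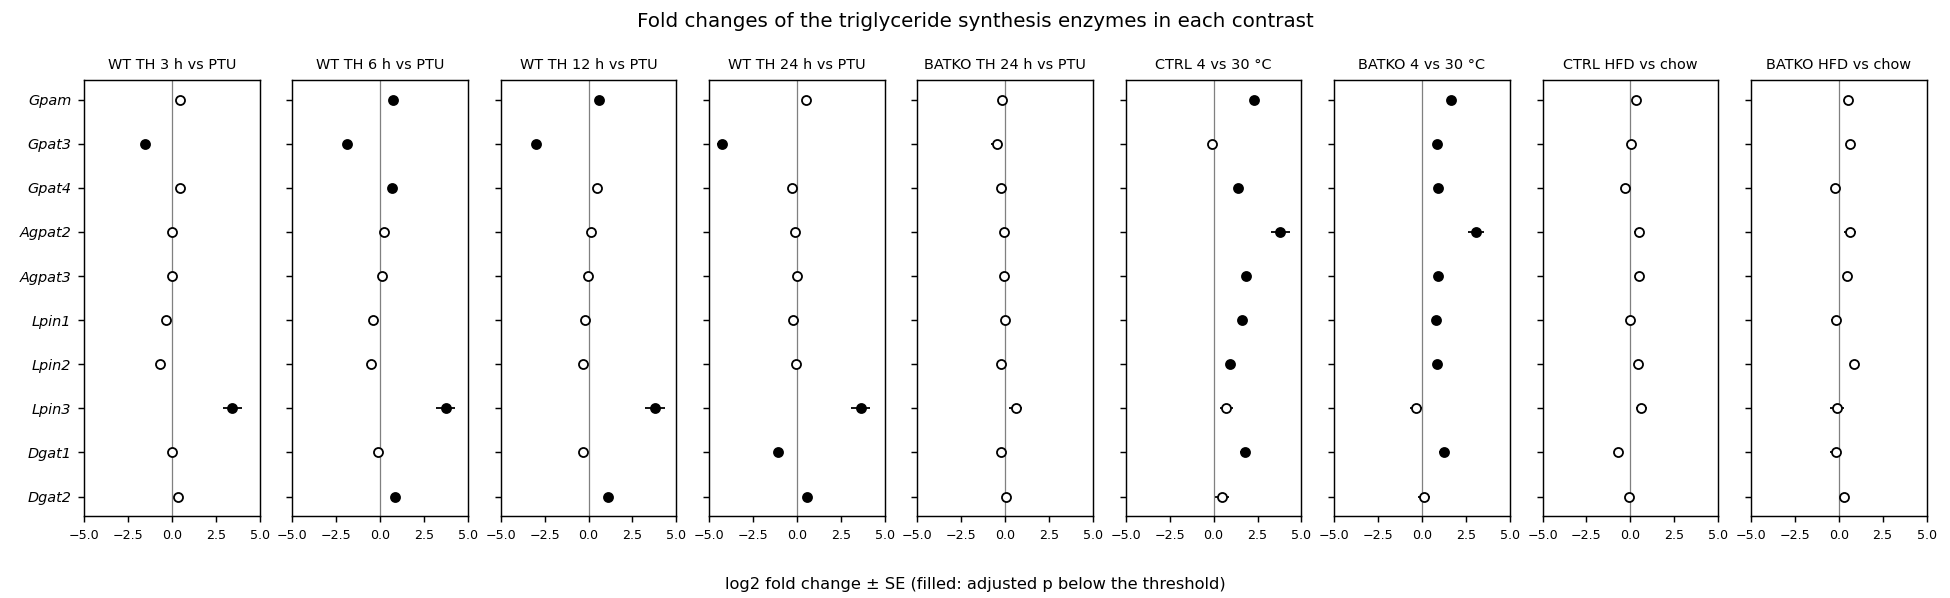
Each panel is 1 contrast, each row 1 gene, and each point the log2 fold change with its SE (x axis), filled where the adjusted p was below 0.05 and open otherwise. Gpat3 and Lpin3 stand apart in the WT panels after TH, 7 genes in CTRL and 8 in BATKO mice are filled and above 0 at 4 °C, and no point is filled for diet.

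In the cold, members of all 4 enzyme steps rose together in both genotypes. In CTRL mice 7 of 10 members were higher at 4 °C than at 30 °C and none was lower, against 49.3% of the 13267 genes tested, of which 3306 were higher and 3239 lower. In BATKO mice 8 were higher and none lower, against 40.2% of the 13267 genes tested, of which 2643 were higher and 2688 lower. Without the muscle-rich mice 8 members were called in CTRL and 6 in BATKO mice, all higher at 4 °C, and 4766 and 2195 genes. The median log2 fold change of the members was 1.51 in CTRL and 0.87 in BATKO mice, while that of all genes was -0.057 and -0.054. No cold mouse overlapped with a warm one in 7 members in CTRL and 8 in BATKO mice, while 50.4% and 31.2% of all genes tested did not overlap, 26.7% and 16.8% with the higher levels at 4 °C. Gpat3 was called in BATKO but not in CTRL mice, while the difference between the genotypes was not past the threshold (adjusted p = 0.104), and Dgat2 and Lpin3 were called in neither genotype. The summed brown adipocyte markers moved with temperature, with 5942 to 7363 CPM at 30 °C against 25040.5 to 28774 CPM at 4 °C in CTRL mice, and 5985 to 7257 CPM against 16953 to 25683 CPM in BATKO mice. Ucp1 was at 146 to 1301 CPM at 30 °C and 13415 to 17186 CPM at 4 °C in CTRL mice, and at 427 to 1172 CPM and 6798 to 14214 CPM in BATKO mice. In CTRL mice the summed macrophage markers were at 60.7 to 100.4 CPM at 30 °C and 46.2 to 58.7 CPM at 4 °C, those of fibroblasts at 192 to 271 CPM and 151 to 175 CPM, those of Schwann cells at 30.1 to 50.2 CPM and 8.69 to 26.5 CPM, and those of lymphocytes at 1.55 to 2.56 CPM and 0.537 to 0.737 CPM. None of these 4 sums overlapped between temperatures in CTRL mice, and all 4 overlapped in BATKO mice. Mouse 19 at 30 °C had the highest macrophage sum of the temperature experiment, 100.4 CPM. The part of these markers in the members' changes was not tested.

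Agpat2 had the largest fold change of the 10 members in both genotypes. Its level was 60.8, 278, 305 and 564 CPM in CTRL mice at 30 °C and 5928, 3851 and 3116 CPM at 4 °C. All cold mice were above all warm mice, and mouse 19 was the lowest of the warm ones. The log2 fold change was 3.80 ± 0.53, adjusted p = 2.53e-05, a 14.0-fold higher level. In BATKO mice it was at 289, 256, 300.4, 717 and 607 CPM at 30 °C and at 3671, 4548, 3744 and 2959.6 CPM at 4 °C (log2 fold change 3.07 ± 0.46, adjusted p = 8.16e-05). Agpat3 was at 144, 158, 139 and 158 CPM in CTRL mice at 30 °C and at 695, 556 and 432 CPM at 4 °C (log2 fold change 1.87 ± 0.18, adjusted p = 6.85e-07). In BATKO mice Agpat3 was at 152, 196, 189.7, 242 and 201 CPM and 322, 405, 447 and 327 CPM (0.90 ± 0.16, adjusted p = 0.000298), again with no overlap. Without the muscle-rich mice the BATKO call was lost (log2 fold change 0.62, adjusted p = 0.0739). This fit kept BATKO mice 7 and 12 at 4 °C and mice 14, 15 and 16 at 30 °C.

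Of the GPAT genes, Gpam was at 83.9, 92.0, 111 and 117 CPM in CTRL mice at 30 °C and at 507, 458 and 547 CPM at 4 °C (log2 fold change 2.27 ± 0.17, adjusted p = 6.71e-08). In BATKO mice it was at 105, 108, 108, 103 and 85.6 CPM and 324, 331, 402 and 236 CPM (1.63 ± 0.15, adjusted p = 9.2e-07). Both genotypes thus had every cold mouse above every warm mouse. Gpat4 was at 125 to 183 CPM at 30 °C and 332 to 434 CPM at 4 °C in CTRL mice (1.39 ± 0.15, adjusted p = 1.54e-06), and at 146 to 182 and 288 to 334 CPM in BATKO mice (0.89 ± 0.13, adjusted p = 5.94e-05). Gpat3 was at 14.5, 18.6, 13.9 and 24.4 CPM in CTRL mice at 30 °C and at 19.6, 13.8 and 18.8 CPM at 4 °C, with overlap (log2 fold change -0.075 ± 0.22, adjusted p = 0.792). In BATKO mice it was at 15.7, 15.3, 17.1, 18.7 and 24.4 CPM at 30 °C and at 30.8, 33.7, 26.8 and 41.6 CPM at 4 °C. All 4 cold BATKO mice were above all 5 warm ones, and the log2 fold change was 0.83 ± 0.18, adjusted p = 0.002. The antisense gene 4930458D05Rik had 39 to 43 raw counts per CTRL mouse at 30 °C and 1 to 8 at 4 °C, and 33 to 50 and 11 to 26 in BATKO mice, and its part in the values of Gpat3 was not tested.

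Lpin1 was at 281, 358, 349 and 451 CPM at 30 °C and 1402, 946 and 1059 CPM at 4 °C in CTRL mice (log2 fold change 1.62 ± 0.18, adjusted p = 2.73e-06). In BATKO mice it was at 363 to 501 and 625 to 849 CPM (0.83 ± 0.16, adjusted p = 0.000628), and this call was lost without the muscle-rich mice (log2 fold change 0.59, adjusted p = 0.118). Lpin2 was at 4.39 to 6.32 and 9.71 to 12.2 CPM in CTRL mice (0.94 ± 0.18, adjusted p = 0.000397) and at 5.48 to 8.63 and 10.3 to 14.5 CPM in BATKO mice (0.86 ± 0.16, adjusted p = 0.000381). Neither gene overlapped between temperatures. Lpin3 had 10 to 35 raw counts per CTRL mouse at 30 °C and 17 to 28 at 4 °C and overlapped because of mouse 20 (0.73 ± 0.38, adjusted p = 0.116). Without mouse 20, which is among the muscle-rich mice, it was called (log2 fold change 1.17, adjusted p = 0.0142). In BATKO mice its log2 fold change was -0.37 ± 0.34, adjusted p = 0.408.

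Dgat1 was at 23.3, 51.2, 39.5 and 61.9 CPM in CTRL mice at 30 °C and at 198, 149.7 and 115 CPM at 4 °C (log2 fold change 1.78 ± 0.30, adjusted p = 0.000131). In BATKO mice it was at 32.5, 57.1, 40.0, 57.2 and 74.8 CPM and 108, 112, 149 and 138 CPM (1.24 ± 0.26, adjusted p = 0.00132). No cold mouse overlapped with a warm one in either genotype. Dgat2 was at 202, 580.0, 565 and 745 CPM at 30 °C and 994, 727 and 515 CPM at 4 °C in CTRL mice, with overlap (0.48 ± 0.37, adjusted p = 0.298). Mouse 19, the lowest for Dgat2 at 30 °C, was also the lowest of these CTRL mice for Agpat2, Dgat1, Lpin1, Gpam and Lpin2. In BATKO mice Dgat2 was at 507 to 1047 and 426 to 1085 CPM (0.11 ± 0.33, adjusted p = 0.81).

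**Figure D4:**
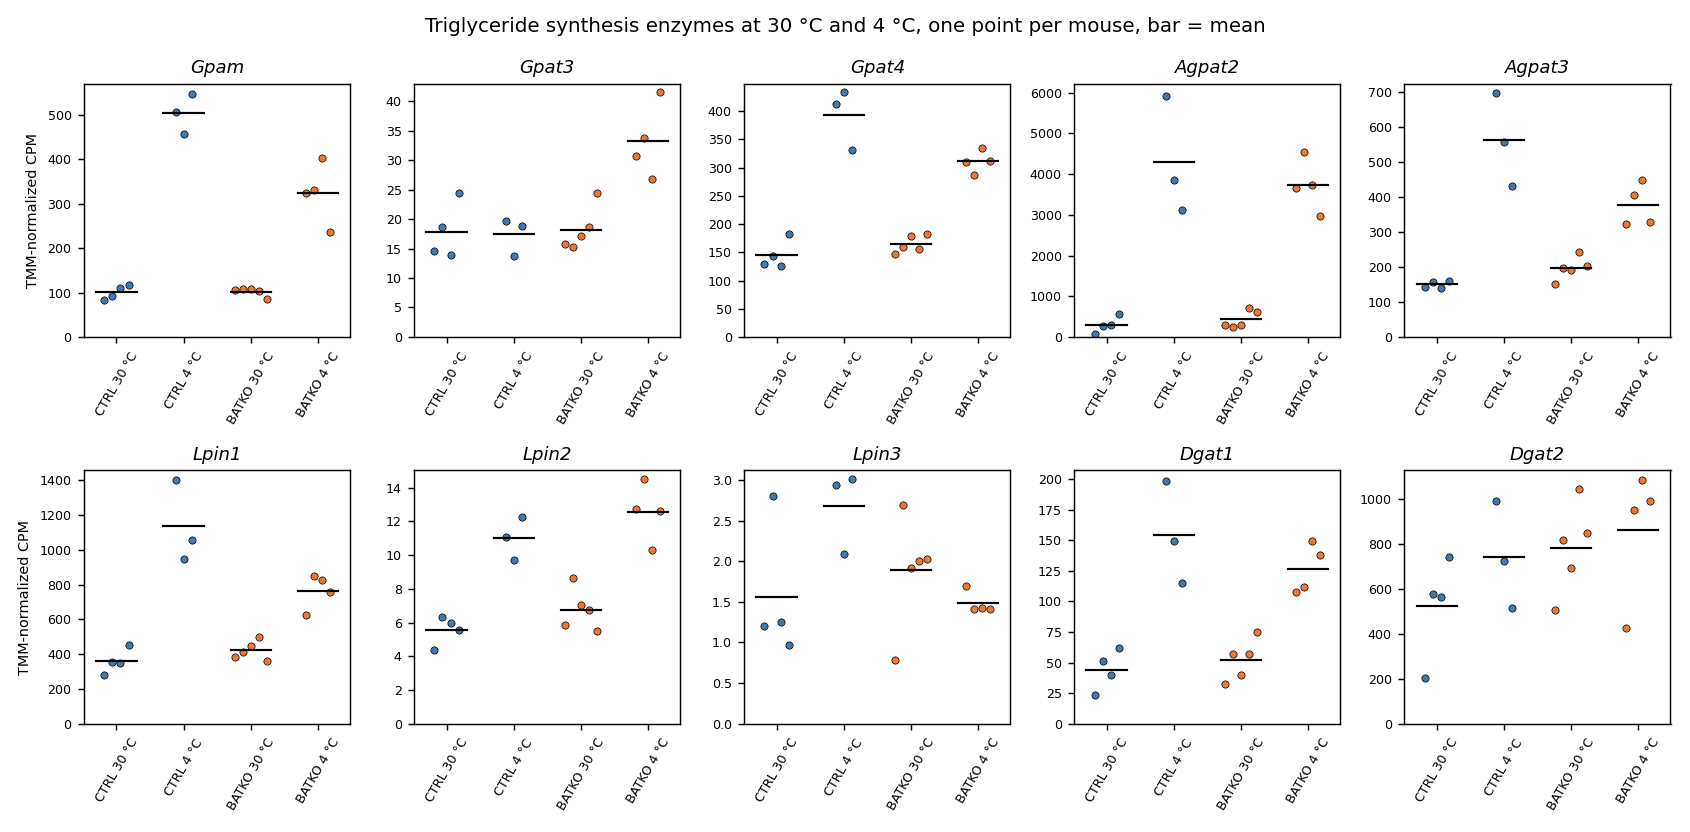
Each panel is 1 gene, each point 1 mouse, and each bar the group mean, on a y axis of TMM-normalized CPM that starts at 0, with CTRL groups in blue and BATKO groups in orange along the x axis. For 7 genes the cold mice of both genotypes lie above the warm ones, as do 26.7% of all genes tested in CTRL and 16.8% in BATKO mice, Gpat3 separates by temperature in BATKO mice and overlaps in CTRL mice, with no called difference between the genotypes (adjusted p = 0.104), and Dgat2 and Lpin3 overlap.

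At 4 °C, 2 of 10 members differed between BATKO and CTRL mice, against 2.43% of the 13267 genes tested. Gpat3 was at 30.8, 33.7, 26.8 and 41.6 CPM in BATKO and 19.6, 13.8 and 18.8 CPM in CTRL mice, with no overlap (log2 difference 0.91 ± 0.22, adjusted p = 0.0381). Gpam was at 236 to 402 CPM in BATKO and 458 to 547 CPM in CTRL mice, the lower level being that of BATKO (-0.67 ± 0.16, adjusted p = 0.0428). Both calls were close to the threshold. That of Gpat3 was lost without any 1 of BATKO mice 7, 8 and 12 and CTRL mice 1 and 2 (adjusted p up to 0.171), in a fit of these 2 groups alone (adjusted p = 0.0689) and without the muscle-rich mice (adjusted p = 0.0727). That of Gpam was lost without any 1 of BATKO mice 7, 8 and 12 and CTRL mice 1, 2 and 5 (adjusted p up to 0.146), in the 2 groups alone (adjusted p = 0.156), without the filter on low counts (adjusted p = 0.085) and without the muscle-rich mice (adjusted p = 0.0877). DESeq2 called 639 genes and 4 members, adding Agpat3 (log2 difference -0.61, adjusted p = 0.024 in DESeq2 and 0.0799 in edgeR) and Lpin1 (log2 difference -0.60, adjusted p = 0.0278 and 0.0876). Agpat3 was also called in edgeR without CTRL mouse 5 (adjusted p = 0.0386). Lpin1 and Lpin3 also did not overlap between these 7 mice, with the lower levels in BATKO, and neither did 13.2% of all genes tested. The summed fibroblast markers were at 177 to 283 CPM in BATKO mice at 4 °C, all above those of CTRL mice, and so were those of lymphocytes, at 0.753 to 4.33 CPM, and their part in these differences was not tested.

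At 30 °C edgeR called 0 of 10 members between the genotypes, against 0.00754% of the 13267 genes tested, and DESeq2 called 0 members and 8 genes. An unadjusted p below 0.05 was reached by 1115 genes and 1 member, Agpat3 (log2 difference 0.35 ± 0.16, unadjusted p = 0.0398 in edgeR). Gpat3 stood at 18.2 ± 3.69 CPM (SD, n = 5) in BATKO and 17.9 ± 4.84 CPM (SD, n = 4) in CTRL mice. The difference of the cold response, BATKO minus CTRL, was past the threshold for 0 members in edgeR, against 1.01% of the 13267 genes tested. An unadjusted p below 0.05 in edgeR was reached by 6 members and 2480 genes. This difference was -0.97 ± 0.24, adjusted p = 0.0595 for Agpat3, -0.79 ± 0.24, adjusted p = 0.0965 for Lpin1 and 0.91 ± 0.29, adjusted p = 0.104 for Gpat3. DESeq2 called 645 genes and 2 members, Agpat3 (adjusted p = 0.00588) and Lpin1 (adjusted p = 0.0302). Agpat3 was also called in edgeR without BATKO mouse 11 (adjusted p = 0.0457), BATKO mouse 13 (adjusted p = 0.0388) or CTRL mouse 5 (adjusted p = 0.0182). The higher cold response of Gpat3 in BATKO mice was thus called within that genotype but its difference from CTRL mice was not.

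Of the 25 other glycerolipid genes tested in this experiment, 15 rose and 3 fell at 4 °C in CTRL mice, and 15 rose and 3 fell in BATKO mice, against 49.3% and 40.2% of all genes called. Gk, which supplies glycerol-3-phosphate to the GPAT step, rose most. It was at 8.94 to 32.1 CPM at 30 °C and 507 to 739 CPM at 4 °C in CTRL mice (log2 fold change 5.23 ± 0.39, adjusted p = 6.71e-08), and at 10.1 to 24.6 and 367 to 515 CPM in BATKO mice (4.79 ± 0.34, adjusted p = 1.44e-07). Tmem159 fell most, with a log2 fold change of -1.53 ± 0.23, adjusted p = 5.55e-05 in CTRL and -1.44 ± 0.20, adjusted p = 4.57e-05 in BATKO mice. At 4 °C 2 of the 25 were lower in BATKO than in CTRL mice, led by Acsl5, another long-chain acyl-CoA synthetase (-1.42 ± 0.27, adjusted p = 0.0144), and none was higher, against 2.43% of all genes called. At 30 °C and in the difference of the cold responses edgeR called none.

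On HFD edgeR called none of the 10 members in CTRL mice, against 3.94% of the 12932 genes tested. An unadjusted p below 0.05 in edgeR was reached by 5 members and 2792 genes, and DESeq2 called 2 members and 872 genes. In BATKO mice edgeR called none, against 0.0696% of the 12932 genes tested. There 4 members and 1995 genes had an unadjusted p below 0.05 in edgeR, and DESeq2 called 2 members and 235 genes. The BATKO comparison rests on 2 chow mice. The median log2 fold change of the members was 0.20 in CTRL and 0.39 in BATKO mice, and that of all genes 0.0044 and 0.022. In CTRL mice 4 marker sums did not overlap between the diets. Those of macrophages were at 57.5 to 69.1 CPM on chow and 83.4 to 229 CPM on HFD, those of fibroblasts at 185 to 236 CPM and 251 to 309 CPM, those of brown adipocytes at 7869.6 to 9195 CPM and 9242 to 10865 CPM, and those of lymphocytes at 1.18 to 2.31 CPM and 0.254 to 0.627 CPM. Their part in the values of CTRL mice was not tested. Between chow and HFD in CTRL mice 10.7% of all genes tested did not overlap.

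Agpat3 was at 120.0, 109.6, 159 and 148 CPM on chow and 197, 194, 171 and 196 CPM on HFD in CTRL mice, with no overlap (log2 fold change 0.49 ± 0.13, adjusted p = 0.0529). DESeq2 called it (adjusted p = 0.00979), as did edgeR without the filter (adjusted p = 0.0112), with a mean count above 50 (adjusted p = 0.0431) and without chow mouse 3 (adjusted p = 0.0256). Without the muscle-rich mice its adjusted p was 0.0107. Agpat2 was at 206, 172, 532 and 267 CPM on chow and 373, 435, 412 and 447 CPM on HFD. Only chow mouse 3, which had the highest skeletal muscle marker sum of the diet experiment (2009 CPM), overlapped with the HFD mice. With it the log2 fold change of Agpat2 was 0.50 ± 0.26, adjusted p = 0.293, and without it 0.95 (adjusted p = 0.00573). Without all muscle-rich mice, which leaves CTRL mice 1 and 2 on chow, it was 1.13 (adjusted p = 0.00561). The part of muscle RNA in this value was not tested.

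Gpam was at 147, 129, 157 and 139 CPM on chow and 162, 215, 176 and 174 CPM on HFD in CTRL mice, also with no overlap (0.34 ± 0.11, adjusted p = 0.102). Gpat3 was at 25.7, 35.1, 50.8 and 31.6 CPM and 32.7, 36.3, 42.3 and 38.1 CPM (0.054 ± 0.17, adjusted p = 0.88). The groups overlapped for Gpat3, and mouse 3 was again the highest on chow. Dgat1 was at 63.9, 103, 94.7 and 85.8 CPM on chow and 44.1, 44.7, 68.6 and 55.5 CPM on HFD (-0.71 ± 0.24, adjusted p = 0.106), and it was called by DESeq2 (adjusted p = 0.0395) and without the filter (adjusted p = 0.00215). The 5 other members had log2 fold changes between -0.33 (Gpat4) and 0.61 (Lpin3).

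In BATKO mice 6 members did not overlap between the 2 chow and 3 HFD mice, with the higher levels on HFD, but neither did 36.4% of all genes tested (19.1% with the higher levels on HFD), and edgeR called 0.0696% of them. The summed macrophage markers were at 147 to 183 CPM on chow and 62.5 to 133 CPM on HFD in these mice, and those of brown adipocytes at 8654 to 10056 CPM and 10792 to 11891 CPM. Those of lymphocytes were at 1.22 to 1.72 CPM and 0.226 to 1.14 CPM and those of Schwann cells at 9.93 to 10.3 CPM and 11.2 to 29.4 CPM. None of these 4 sums overlapped between the diets, and their part in these values was not tested. Lpin2 was at 7.94 and 7.06 CPM on chow and 14.0, 12.9 and 14.2 CPM on HFD (log2 fold change 0.86 ± 0.19, adjusted p = 0.0871), and was called by DESeq2 (adjusted p = 0.0279) and without the filter (adjusted p = 0.0355). Gpat3 was at 33.8 and 40.1 CPM and 52.3, 60.4 and 59.9 CPM (0.63 ± 0.22, adjusted p = 0.215). Gpam was at 119.5 and 122 CPM and 146, 193 and 188 CPM (0.53 ± 0.15, adjusted p = 0.141), and DESeq2 called it (adjusted p = 0.0381). The other 3 were Agpat2 (0.65 ± 0.35, adjusted p = 0.383), Agpat3 (0.50 ± 0.17, adjusted p = 0.219) and Dgat2 (0.28 ± 0.23, adjusted p = 0.57). Dgat1 overlapped, since BATKO mouse 12 on HFD was at 136 CPM and the other 2 at 62.2 and 65.0 CPM.

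Between genotypes on HFD edgeR called 0 members, with 0% of the 12932 genes tested called, DESeq2 called 0 members and 9 genes, and 2 members and 706 genes had an unadjusted p below 0.05. One was Gpat3, at 52.3, 60.4 and 59.9 CPM in BATKO and 32.7, 36.3, 42.3 and 38.1 CPM in CTRL mice, with no overlap (log2 difference 0.62 ± 0.18, adjusted p = 0.875), and the other was Dgat1 (0.72 ± 0.26, adjusted p = 0.875). Without the filter on low counts both were called, with adjusted p-values of 0.0492 and 0.0429. Between genotypes on chow the count of members was 0 in edgeR and in DESeq2, with 0% of the 12932 genes tested called by edgeR, 31 genes by DESeq2, and 0 members and 1039 genes at an unadjusted p below 0.05. On chow Gpam and Lpin2 did not overlap between genotypes and were lower in the 2 BATKO mice, Gpam with a log2 difference of -0.24 ± 0.14, adjusted p = 0.727 and Lpin2 with one of -0.23 ± 0.18, adjusted p = 0.825, while 17.7% of all genes tested did not overlap. On chow the sums of macrophages, fibroblasts, white adipocytes and Schwann cells did not overlap between the genotypes either, the first 3 being higher in BATKO mice, with white adipocytes at 198 to 324 CPM against 92.2 to 136 CPM and fibroblasts at 298 to 359 CPM against 185 to 236 CPM, and their part was not tested. The difference of the diet responses, BATKO minus CTRL, gave 0 members in both tools, with 0% of the 12932 genes tested called and 0 members and 744 genes at an unadjusted p below 0.05. For Gpat3 it was 0.58 ± 0.27, adjusted p = 0.867. Of the 25 other glycerolipid genes, 1 was called on HFD in CTRL mice, Acsl1, which rose (0.51 ± 0.12, adjusted p = 0.0317), against 3.94% of all genes, and none in the other 4 comparisons of this experiment.

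**Figure D5:**
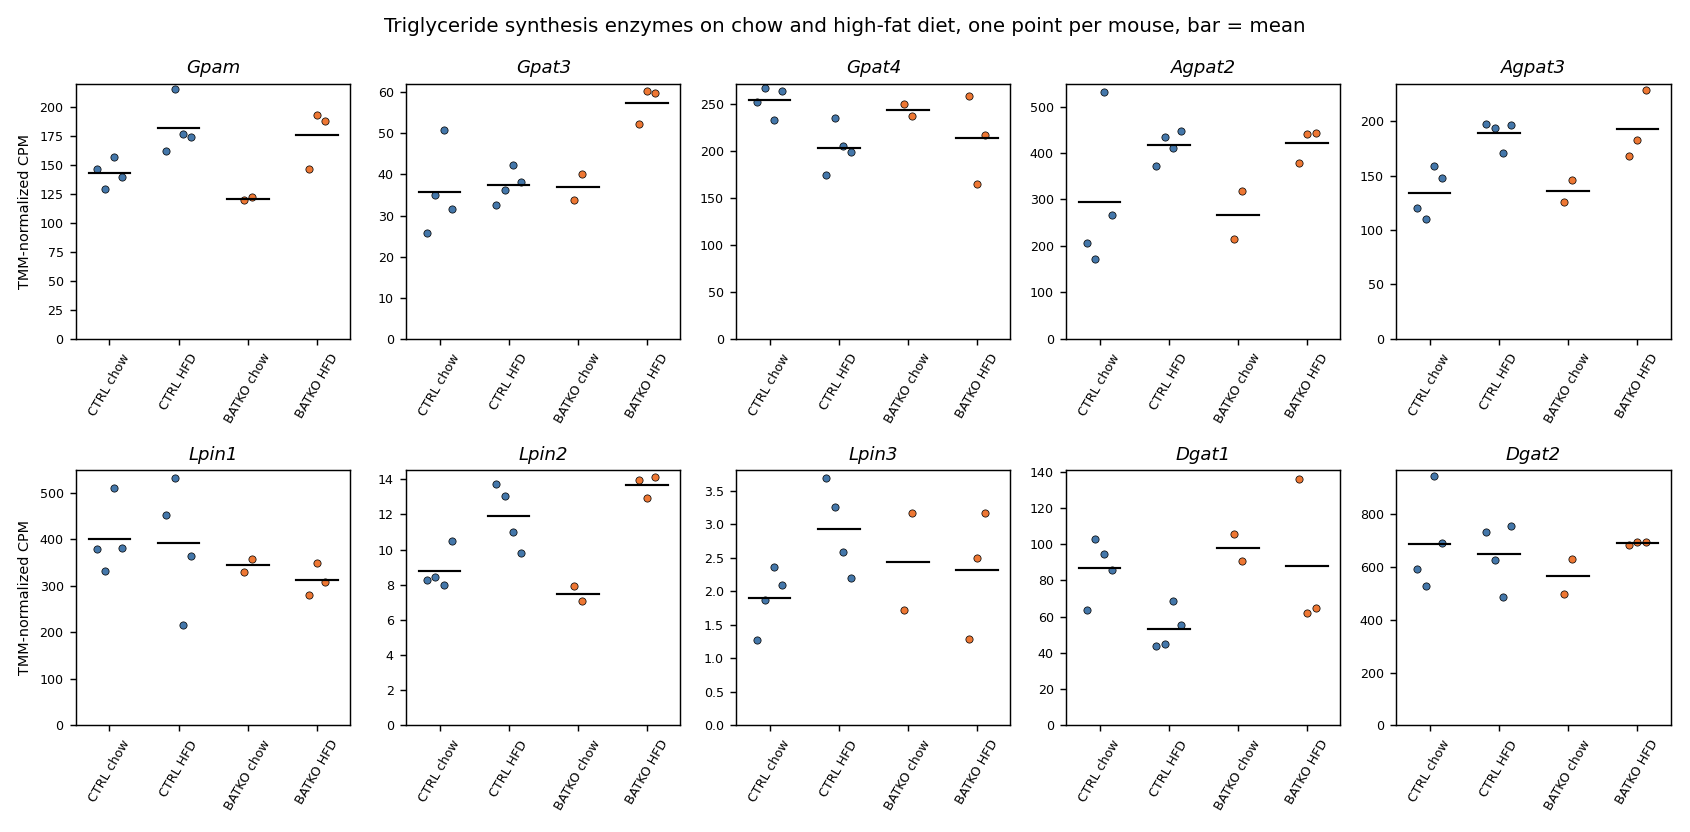
Each panel is 1 gene, each point 1 mouse, and each bar the group mean, on a y axis of TMM-normalized CPM that starts at 0, with CTRL groups in blue and BATKO groups in orange along the x axis. Most members overlap between the diets in at least 1 genotype, Gpat3 has its highest levels in the 3 BATKO mice on HFD, and CTRL chow mouse 3 stands high for Agpat2 and Gpat3.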

How the data were processed

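BAT of 59 mice had been sequenced, 1 library per mouse, from Trizol-extracted RNA with a Lexogen total RNA SENSE kit on a NextSeq 500. The authors aligned reads to GRCm38 (mm10) with Bowtie (Bowtie2 2.3.2.2 in the submitters' processing notes), removed those of an alignment quality under 10 and deposited raw counts per gene from htseqcount, without normalization. The annotation and strand setting of the counting are not given in the sources used here. Positions and exon lengths came from GENCODE for GRCm38, which held 55327 of the 55341 symbols. Each column was matched to a mouse by its labels, and 0 were left over.

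Counts were tested with edgeR (version 4.0.16, R version 4.3.3), using TMM, a minimum of 10 for a gene's mean normalized count, the quasi-likelihood test, and Benjamini-Hochberg adjustment over all genes tested with a threshold of 0.05 and no fold limit. WT time points were fitted over the 20 WT mice, the BATKO response and the interaction over all 30 mice, and the other comparisons over all mice of their experiment. Standard errors were derived from the F statistic. The procedure was tested on simulated data. Over the 91 pairs of mice from the same group, chi-square per degree of freedom was at least 6.81, so no such pair agreed within sampling noise. Pairs from different groups were not compared. Alternatives were DESeq2 (version 1.42.0), its size factors (RLE), other count filters, mitochondrial genes left out, only the groups compared and each mouse left out. Leaving out the 11 muscle-rich mice and the AGPAT sum over more genes were added after the data were seen.

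The members, the list of 29 other glycerolipid genes and the marker lists were chosen with earlier results of these data known. Named besides the members were the glycerolipid gene with the largest change in each direction among those called, and the 5 genes with the highest correlation with Gpat3. Agpat1, Agpat4, Agpat5 and Lclat1 were also named outside this rule, after their values were seen.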

Additional observations from a re-analysis of the deposited data

Results flagged for a closer look

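In 120 checks of a member within a group of 4 or 5 mice, 8 found 1 mouse far from the others, where chance gives about 1 in 20, that is 6. Each was a different mouse. Gpam was low in BATKO mouse 17 at 30 °C, at 85.6 CPM against 102.8 to 108 CPM, and this mouse had the highest skeletal muscle marker sum of all (7720 CPM). Lpin3 was high in CTRL mouse 20 at 30 °C, at 2.80 CPM against 0.972 to 1.25 CPM, and in BATKO mouse 7 at 4 °C, at 1.69 CPM against 1.41 to 1.43 CPM. Lpin2 was high in BATKO mouse 4 on PTU, at 6.65 CPM against 5.29 to 5.58 CPM, and in BATKO mouse 7 at 24 h after TH, at 6.56 CPM against 3.92 to 4.62 CPM. Agpat3 was low in CTRL mouse 10 on HFD, at 171 CPM against 194 to 197 CPM, and this mouse had the highest macrophage marker sum (229 CPM). Dgat1 was low in WT mouse B2 on PTU, at 62.3 CPM against 88.3 to 90.1 CPM. Dgat2 was high in WT mouse B21 at 12 h, at 1029 CPM against 789 to 817 CPM.

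The interaction term for the 24 h response to TH, BATKO minus WT on the log2 scale, was called for 3 members. It was called for 12.3% of the 14178 genes tested. The difference was 3.78 for Gpat3, 0.87 for Dgat1 and -3.04 for Lpin3, whose WT mice on PTU held 10 raw counts in all. In this experiment genotype and any other difference between the WT and BATKO libraries cannot be told apart.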

How the results depend on the processing

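Of the 51 calls of a member in a comparison, 43 were made in every fit that left out 1 mouse and 8 were lost in at least 1, and no direction turned in any alternative. The number of members called moved by more than 1.5 times, or to or from 0, as follows. With a mean count above 50, which removes Lpin3, it was 1 in place of 2 at 3 h in WT mice and 1 in place of 0 on HFD in CTRL mice. In DESeq2 it was 4 in place of 2 between genotypes at 4 °C, and 2 in place of 0 for the difference of the cold responses and for HFD in CTRL and in BATKO mice. Without the filter it was 1 in place of 2 between genotypes at 4 °C, and 2, 1 and 2 in place of 0 for HFD in CTRL mice, HFD in BATKO mice and genotypes on HFD. Without the muscle-rich mice it was 0 in place of 1 from 6 h to 12 h, 0 in place of 2 between genotypes at 4 °C and 2 in place of 0 on HFD in CTRL mice. It was also 0 from 6 h to 12 h in the fit of all 30 mice, and 0 between genotypes at 4 °C in these 2 groups alone. Leaving out each mouse gave 2 to 4 at 3 h in WT mice, 0 to 1 from 6 h to 12 h, 0 to 2 between genotypes at 4 °C, 0 to 1 for the difference of the cold responses and 0 to 2 on HFD in CTRL mice, and a number within 1 of the reported one in the other comparisons. Smaller moves also occurred. With a mean count above 50 the number was 1 lower at 6, 12 and 24 h in WT mice, for the difference of the 24 h responses, and between genotypes on PTU and at 24 h. It was 1 higher in DESeq2 at 3, 12 and 24 h and from 12 h to 24 h, without the filter at 12 and 24 h, from 12 h to 24 h and between genotypes at 24 h, in these groups alone at 12 h, and in the fit of all 30 mice at 3 and 12 h. It was 1 lower in the fit of all 30 mice from 12 h to 24 h and between genotypes on PTU in these groups alone, where Lpin3 was not tested. Without the muscle-rich mice it was 8 in place of 7 in CTRL and 6 in place of 8 in BATKO mice in the cold. The cause was not tested.

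No paired analysis was possible because each mouse gave 1 library and stands in 1 group, and a number used in more than 1 group names different mice. Among all genes, those called at 3 h in WT mice numbered 1195, and 685 to 1309 when 1 mouse was left out. From 3 h to 6 h they were 361 (114 to 409, and 187 without the muscle-rich mice), from 6 h to 12 h 379 (118 to 388, 104 without these mice and 619 in DESeq2) and from 12 h to 24 h 1480 (901 to 1717). Between genotypes at 4 °C they were 323 (52 to 514, 99 without the muscle-rich mice and 639 in DESeq2), for the difference of the cold responses 134 (7 to 879, 8 without these mice and 645 in DESeq2), on HFD in CTRL mice 509 (166 to 727, and 872 in DESeq2) and on HFD in BATKO mice 9 (0 to 11, 4 without these mice and 235 in DESeq2). In the cold in BATKO mice they were 5331, and 2195 without the muscle-rich mice. Counting depth limits Lpin3 (0 to 64 counts per mouse) and Gpat3 after TH.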
